A study of Bos taurus with 90 samples.

Results

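Liver gene expression was compared between low and high residual feed intake (RFI) Charolais (CH) steers that had been offered zero-grazed grass (ZG), that is, fresh grass cut and carried to the animal. The comparison rests on 6 of the 90 liver libraries of the series, chosen by the breed, diet and RFI status in their labels. The low RFI group held steers 357, 788 and 1831 and the high RFI group held steers 307, 437 and 1816. RFI is the difference between the feed an animal eats and the feed predicted from its body weight and growth, so that a low RFI steer eats less than predicted and is the more feed-efficient animal. Steers were ranked for RFI within breed at the end of each dietary phase, and liver was taken then by punch biopsy through the skin. The series also holds Holstein-Friesian (HF) steers and 2 phases on a high-concentrate diet, H1 before the grass phase and H2 after it, and these groups are used below only as a contrast. The labels give the 6 steers the same breed and diet, and the groups are set by the rank for RFI in that phase.

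The liver carries out gluconeogenesis, urea synthesis, lipoprotein export and detoxification, and it secretes most proteins of the blood plasma, among them clotting factors, complement and the acute phase proteins that increase in blood during inflammation. In ruminants it also handles large flows of propionate, ammonia and methyl groups. Its share of the energy an animal spends at rest is large for its weight, and it is a common tissue in studies of feed efficiency.

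The 6 libraries held from 16726145 to 33208581 reads on genes. The library of steer 788 stood apart from the other 5. Its median correlation with them, on a log2 scale over genes, was 0.930, against 0.963 to 0.975 for the others, and 58.2% of its reads fell on its 100 most abundant genes, against 50.2% to 53.6%. The first principal component of the 6 libraries held 54.5% of their variance and ran from steer 437 at -37.8 to steer 788 at 72.4. On a component derived from the 18 HF libraries of the same diet, which took no part in the CH comparison, the low RFI steers scored 13.5, -53.5 and 26.3 and the high RFI steers 43.0, 54.2 and 33.3. The CH RFI groups did not overlap on that score, so that RFI group and this gradient cannot be told apart in 3 steers against 3. Among the 18 HF libraries the score ran from -114.9 to 67.2, with a median of 13.24 for low and 18.15 for high RFI steers. Gene names could be matched for 319 of the 13025 genes tested, and none of the hepatocyte markers was among them, so that the labelled tissue was not checked through those markers here.

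No gene passed the threshold of an adjusted p under 0.1 in edgeR's quasi-likelihood test, so that 0% of 13025 genes were called, and the smallest adjusted p was 0.282. An unadjusted p under 0.05 was found for 1755 genes, or 13.5% of those tested. Of these, 799 (6.13% of all tested) were more and 956 (7.34%) less abundant in low RFI steers. This balance was the other way in the fit of all 24 grass libraries, with 486 higher and 182 lower of 668 genes, and with the score on the HF component as a covariate, with 269 higher and 156 lower of 425 genes. DESeq2 on the same counts called 158 of 12556 genes (1.26%), of which 38 (0.303%) were higher and 120 (0.956%) lower. limma-voom called 9 genes and edgeR's likelihood ratio test 67. Of the 9 genes called by limma-voom, 8 were among the 158 of DESeq2, and they included BHMT2, TNC, ABCA6, FCGR2B, SLC39A4, TUBA4A and HACD4. Without the library of steer 788 DESeq2 called 324 genes, of which 134 were among the 158, while without the library of steer 437 it called 15, of which 10 were among the 158. The edgeR test called 1 gene without steer 788, the unnamed ENSBTAG00000039555, and 0 without any other single steer. The values given below for single genes are therefore differences between these 6 steers, and "higher" and "lower" describe low RFI relative to high RFI steers.

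**Figure D1:**
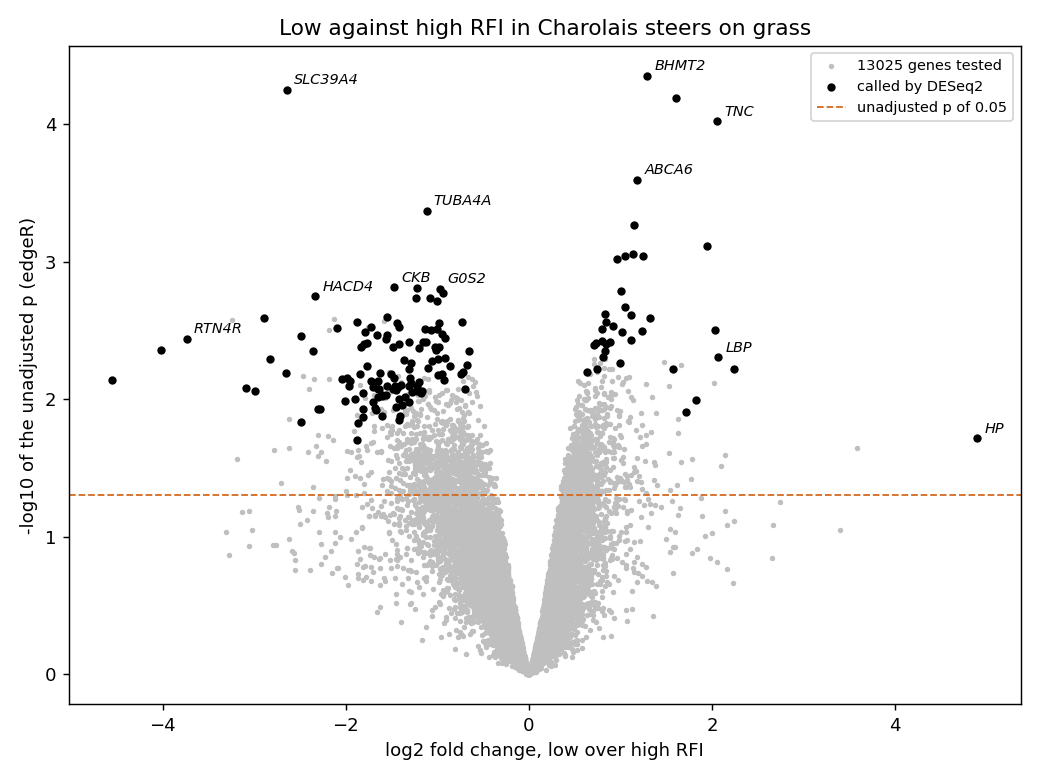
Log2 fold change of low over high RFI (horizontal axis) against the -log10 of the unadjusted p from edgeR (vertical axis) for the 13025 genes tested. Black points are genes called by DESeq2, most of them on the lower side, and the dashed line marks an unadjusted p of 0.05.

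The lower genes were further apart in fold than the higher genes. Among genes with an unadjusted p under 0.05 the median log2 fold change was 0.61 for the 799 higher genes and -0.97 for the 956 lower genes, against 0.04 over all genes tested. The lower genes were also less abundant, with a median of 11.1 CPM (read counts scaled to a common library size) against 18.4 CPM for the higher genes. When all genes were ranked by mean expression and split into 10 equal groups, the least abundant group, from 0.255 to 1.12 CPM, held 36 higher and 75 lower genes with such a p. The group next to the most abundant one, from 39.5 to 78.7 CPM, held 119 higher and 86 lower genes, whereas the most abundant group, from 78.8 CPM, held 85 higher and 108 lower genes. The 3 low RFI steers lay below all 3 high RFI steers for 1812 genes (13.9% of all tested) and above them for 1810 (13.9%). Of the 1812 genes, steer 788 had the lowest value of all 6 in 90.2% and steer 437 the highest in 59.7%. Of the 1810 genes, steer 788 had the highest value in 79.3% and steer 437 the lowest in 1031.

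Many of the genes with a name carry it because the study listed them for this comparison on these libraries. Of its 158 listed genes 157 were tested, and all 157 had an unadjusted p under 0.05 (100%, against 13.5% of all genes), 37 with all low RFI steers above and 117 with all below the high RFI steers (13.9% of all genes on each side). The study made this list with DESeq2, which here called 38 of the 157 as higher and 119 as lower. The 158 DESeq2 calls given above are therefore largely the study's list again. In the lists of one-carbon, acute phase, complement and coagulation, lipid, nitrogen, glucose, cytoskeleton, heat shock, mitosis and NF-kB genes below, every gene with an unadjusted p under 0.05 was one of these 157, so the counts of those lists follow from how the genes were named and are no independent evidence.

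Both genes with the smallest p had well separated groups. BHMT2, one of the enzymes that remethylate homocysteine, was found at 37.1, 45.4 and 44.2 CPM in low RFI steers 357, 788 and 1831 and at 16.3, 17.6 and 17.8 CPM in high RFI steers 307, 437 and 1816. The steers of a group lay close together and the groups far apart, with a log2 fold change of 1.29 (SE 0.16). SLC39A4, the zinc importer ZIP4, was found at 1.56, 0.840 and 1.64 CPM in low RFI steers and at 8.39, 6.42 and 10.6 CPM in high RFI steers (log2 fold change -2.65, SE 0.34). It rests on 41, 17 and 28 reads in the low RFI steers and on 183, 178 and 374 reads in the high RFI steers. An exact permutation test over the 20 splits of the 6 steers gave a two-sided p of 0.1 for both genes, the smallest that 3 steers against 3 can give. Every gene without overlap between the groups gets this value, and 13.9% of all genes were without overlap on each side. The test therefore adds nothing to the separation of the groups. Whichever steer was dropped, BHMT2 stayed between 1.23 and 1.37 and SLC39A4 between -2.83 and -2.40 on the log2 scale.

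**Figure D2:**
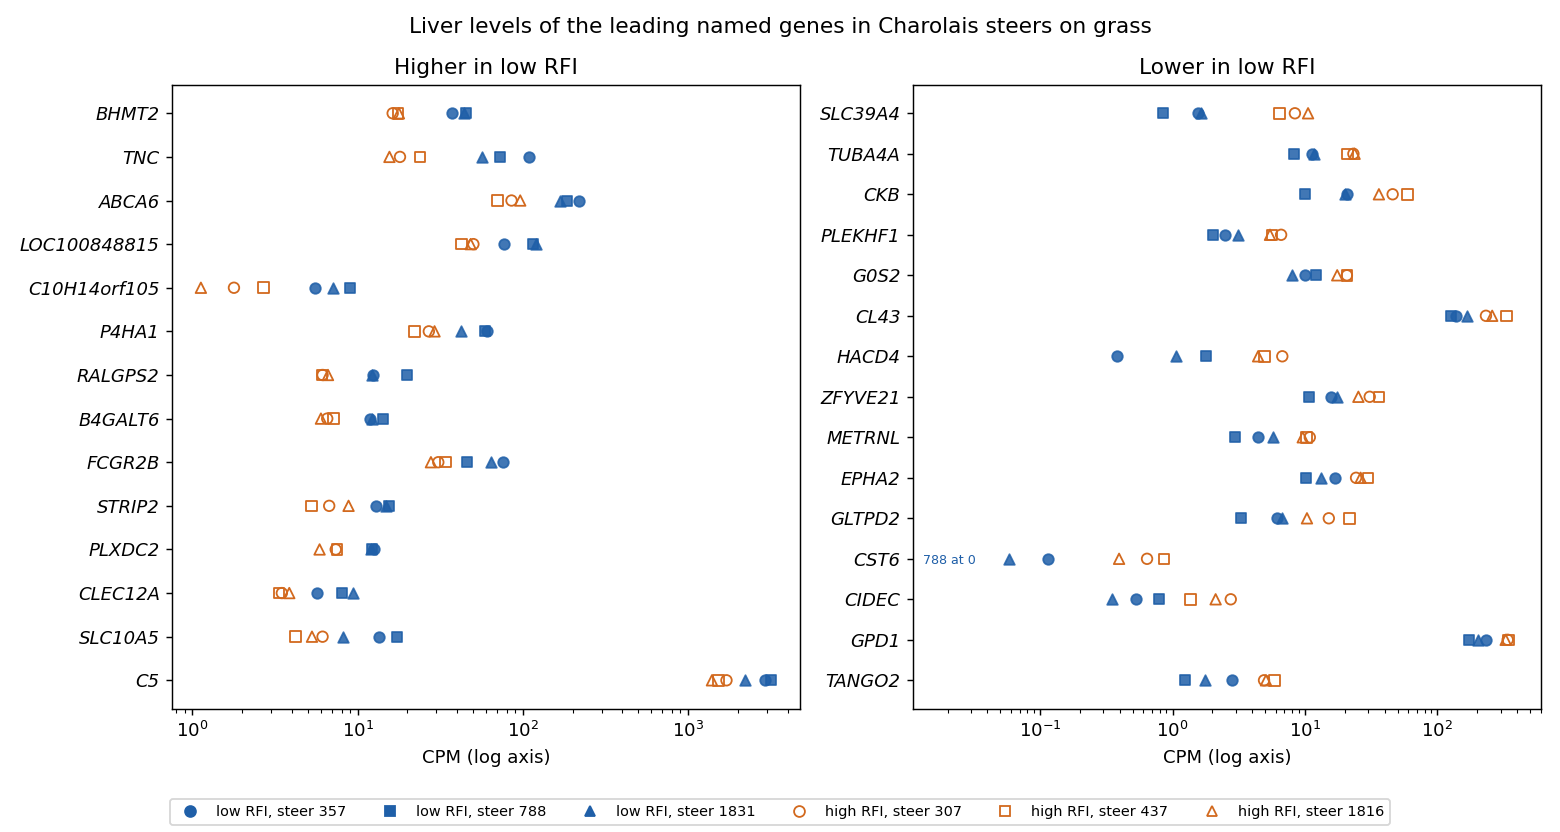
CPM on a log axis in each steer for 14 higher and 15 lower named genes with the smallest p, with low RFI steers as filled and high RFI steers as open symbols. The groups are apart for every gene, as the choice by p favours, and steer 788 is the lowest of the 6 for 12 of the 15 lower genes.

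Among enzymes of betaine, methionine and sarcosine metabolism, 5 of 38 listed genes could be matched, 2 of them with an unadjusted p under 0.05 on the higher side (6.13% of all genes) and 1 on the lower side (7.34%). DMGDH, the mitochondrial dimethylglycine dehydrogenase that takes the product of betaine-dependent remethylation further, was found at 302, 485 and 377 CPM in low RFI steers and at 234, 199 and 180 CPM in high RFI steers (log2 fold change 0.92, SE 0.22). SARDH, sarcosine dehydrogenase, which acts on the product of DMGDH, was found at 28.5, 11.7 and 30.5 CPM against 57.2, 88.1 and 52.6 CPM (log2 fold change -1.49, SE 0.37). Consecutive enzymes of this route were therefore on opposite sides in these steers, and steer 788 held both the highest DMGDH and the lowest SARDH level. AHCY, which hydrolyses S-adenosylhomocysteine, was lower in each low RFI steer (2127, 1442 and 1950 CPM) than in each high RFI steer (2361, 2808 and 2387 CPM), with an unadjusted p of 0.053 from edgeR.

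The matched genes of acute phase proteins and of complement and coagulation proteins were on the higher side. All 5 acute phase genes that could be matched of 32 listed, and all 3 complement and coagulation genes tested of 43 listed, had an unadjusted p under 0.05 (13.5% of all genes) and were called by DESeq2 (1.26%), with medians of 1.71 and 0.84 against 0.04 over all genes. The study listed these genes on the same libraries with DESeq2, so their p, DESeq2 calls and direction are no independent evidence. HP, the haemoglobin-binding protein haptoglobin, had the widest spread, with 2473, 39.1 and 882 CPM in low RFI steers and 85.9, 17.0 and 11.2 CPM in high RFI steers. Steer 788 was below high RFI steer 307, so the groups overlapped, and the log2 fold change of 4.90 (SE 1.57) ran from 3.61 to 6.31 when single steers were left out. LBP, which binds bacterial lipopolysaccharide, was found at 604, 186 and 152 CPM against 92.1, 79.3 and 53.5 CPM, and its log2 fold change of 2.07 (SE 0.53) came down to 1.16 without steer 357. SERPINA3, a secreted protease inhibitor, was found at 1227, 261 and 466 CPM against 245, 204 and 147 CPM, and its log2 fold change of 1.71 (SE 0.53) came down to 0.87. Steer 357 had the highest level of each of these 3 genes.

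The fibrinogen and complement genes were more even across the low RFI steers. FGG, the fibrinogen gamma chain, was found at 18410, 16880 and 13330 CPM against 10190, 9244 and 8540 CPM, a log2 fold change of 0.80 (SE 0.19), and FGA, the alpha chain, at 18360, 15680 and 12400 CPM against 9543, 9895 and 8185 CPM (0.75, SE 0.20). C5, whose cleavage starts the membrane attack complex, was found at 2913, 3186 and 2213 CPM against 1708, 1530 and 1395 CPM (log2 fold change 0.84, SE 0.20). F5, coagulation factor V, was found at 1175, 1400 and 1034 CPM against 747, 685 and 771 CPM (0.71, SE 0.18). None of these 4 genes overlapped between the groups, and 13.9% of all genes tested also lay above without overlap. All 4 were named through the study's list for these libraries. For C5 and F5 steer 788 was the highest. Leaving out any 1 steer kept the log2 fold changes of these 4 genes between 0.59 and 0.95.

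Genes of the adaptive and innate immune cells were matched only in small numbers. FCGR2B, an inhibitory IgG receptor of immune cells and of the liver sinusoid lining, was found at 76.1, 45.9 and 64.1 CPM against 30.8, 33.99 and 27.8 CPM, a log2 fold change of 1.01 (SE 0.22). CLEC12A, an inhibitory receptor of myeloid cells, was found at 5.70, 8.11 and 9.39 CPM against 3.48, 3.35 and 3.86 CPM, a log2 fold change of 1.11 (SE 0.25). IFI44, an interferon-induced gene, was found at 20.9, 35.7 and 19.1 CPM against 12.6, 11.3 and 14.0 CPM (1.00, SE 0.26). In whole tissue, more cells of a type and more RNA per cell cannot be told apart. FCGR2B was the 1 matched member of 15 endothelial markers, and PKHD1, the 1 matched member of 13 bile duct markers, overlapped between the groups. No macrophage, leukocyte, stellate, red cell, muscle, fat or skin marker was matched, so the part of other cell types was not tested.

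Of 5 matched genes of NF-kB and interleukin 6 signalling, TRAF4 and TOLLIP had an unadjusted p under 0.05 on the lower side (7.34% of all genes). NFKBIA, IL1A and TNFAIP3 overlapped between the groups, as did 9403 of the 13025 genes tested. IL17RC, a receptor subunit for interleukin 17, was found at 43.8, 22.8 and 36.2 CPM in low RFI and at 66.9, 61.1 and 74.9 CPM in high RFI steers (log2 fold change -0.98, SE 0.25). TRAF4, an adaptor protein, was found at 12.6, 12.3 and 23.8 CPM against 37.7, 33.4 and 30.4 CPM (-1.06, SE 0.28), and TOLLIP, an inhibitor of Toll-like receptor signalling, at 42.1, 12.3 and 39.2 CPM against 80.5, 112 and 63.2 CPM (-1.45, SE 0.44).

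ABCA6, a transporter of the ABC1 family, was found at 219, 184 and 168 CPM in low RFI steers and at 85.5, 70.1 and 96.5 CPM in high RFI steers (log2 fold change 1.18, SE 0.19). SLC10A5, of the bile acid transporter family, was found at 13.5, 17.4 and 8.21 CPM against 6.14, 4.22 and 5.30 CPM (1.32, SE 0.31). All 3 matched genes of lipid droplets and lipoprotein export, of 29 listed, had lower levels in each low RFI steer than in any high RFI steer, as had 13.9% of all genes, and all 3 were named through the study's list for these libraries. G0S2, the inhibitor of the triglyceride lipase ATGL, was found at 10.1, 12.01 and 7.92 CPM against 20.7, 20.7 and 17.5 CPM (-0.97, SE 0.21). CIDEC, a lipid droplet protein, was found at 0.532, 0.791 and 0.352 CPM against 2.75, 1.37 and 2.12 CPM, which are 6 to 16 reads per low RFI library and 38 to 75 per high RFI library (-1.87, SE 0.44). APOC3, an inhibitor of lipoprotein lipase, was found at 1419, 956 and 1422 CPM against 2143, 1981 and 2046 CPM (-0.70, SE 0.20).

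Of the lipid synthesis list 2 of 31 genes were matched. For 1 of them, MID1IP1, the unadjusted p was under 0.05 on the lower side (7.34% of all genes). The study listed this gene for these libraries. MID1IP1, which activates acetyl-CoA carboxylase, was found at 20.2, 19.2 and 22.1 CPM against 51.3, 33.6 and 30.9 CPM (log2 fold change -0.91, SE 0.22). DGAT2, which forms triglyceride, had a log2 fold change of -0.27 (SE 0.17) and overlapped between the groups. GPD1, of the glucose list, which makes glycerol 3-phosphate for triglyceride synthesis, was found at 234, 172 and 202 CPM against 339, 343 and 328 CPM (-0.73, SE 0.17), and HACD4, an enzyme of fatty acid elongation, at 0.380, 1.78 and 1.06 CPM against 6.74, 4.94 and 4.43 CPM (-2.34, SE 0.51). NR0B2, the nuclear receptor SHP that represses bile acid synthesis, was found at 1.60, 1.28 and 3.40 CPM against 6.10, 11.2 and 4.96 CPM (-1.84, SE 0.46).

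Of the nitrogen metabolism list 3 of 5 matched genes, and of the glucose list 3 of 4, had an unadjusted p under 0.05 on the lower side (7.34% of all genes). Steer 788 was the lowest of the 6 in LDHD, TKFC, AGXT, ALDH4A1 and ASPG. LDHD, which oxidises D-lactate, was found at 9.77, 2.57 and 11.1 CPM in low RFI steers and at 21.6, 26.2 and 25.4 CPM in high RFI steers (log2 fold change -1.64, SE 0.46). TKFC, which phosphorylates dihydroxyacetone and glyceraldehyde, was found at 130, 86.4 and 158 CPM against 254, 251 and 235 CPM (-0.98, SE 0.23). AGXT, which detoxifies glyoxylate, was found at 35.0, 19.5 and 52.2 CPM against 77.1, 114 and 70.2 CPM (-1.29, SE 0.36). ALDH4A1, of proline breakdown, was found at 158, 48.5 and 157 CPM against 321, 373 and 253 CPM (-1.38, SE 0.42), and ASPG, an asparaginase, at 3.19, 0.840 and 2.93 CPM against 14.6, 16.7 and 4.62 CPM (-2.36, SE 0.60).

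All 9 matched cytoskeleton genes of 32 listed had an unadjusted p under 0.05 on the lower side (7.34% of all genes), with a median log2 fold change of -1.37 against 0.04 over all genes, and 8 of the 9 did not overlap between groups (13.9% of all genes). The study listed all 9 on these libraries, which fixed this count. TUBA4A, an alpha tubulin, was found at 11.3, 8.25 and 11.7 CPM against 23.2, 20.9 and 23.7 CPM, a log2 fold change of -1.12 (SE 0.19) with close replicates. TUBB4B, a beta tubulin, was found at 22.0, 8.75 and 23.4 CPM against 49.6, 53.1 and 37.1 CPM (-1.37, SE 0.36). KIFC3, a minus-end motor protein, and KRT8, the main keratin of hepatocytes with KRT18, were at -1.20 (SE 0.30) and -0.99 (SE 0.26) on the log2 scale. BCAR1, an adaptor of focal adhesions, was found at 10.7, 4.004 and 16.2 CPM against 28.2, 39.3 and 23.1 CPM (-1.56, SE 0.46). Tubulins share much sequence with each other, and reads that fit more than 1 of them are assigned by the counting of the authors.

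Matrix genes were divided. TNC, the matrix glycoprotein tenascin C, was found at 109, 72.3 and 56.8 CPM in low RFI steers and at 18.1, 23.8 and 15.6 CPM in high RFI steers (log2 fold change 2.05, SE 0.28), and P4HA1, which hydroxylates collagen prolines, at 60.5, 59.0 and 42.2 CPM against 27.0, 22.1 and 29.2 CPM (1.05, SE 0.20). GPC1, a heparan sulfate proteoglycan, was lower, at 16.5, 4.60 and 19.9 CPM against 41.6, 62.0 and 30.4 CPM (-1.71, SE 0.51), as was SPON2, a secreted matrix protein, at 57.3, 12.8 and 67.2 CPM against 150, 268 and 86.9 CPM (-1.88, SE 0.64). These are all 4 matched genes of 45 listed.

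**Figure D3:**
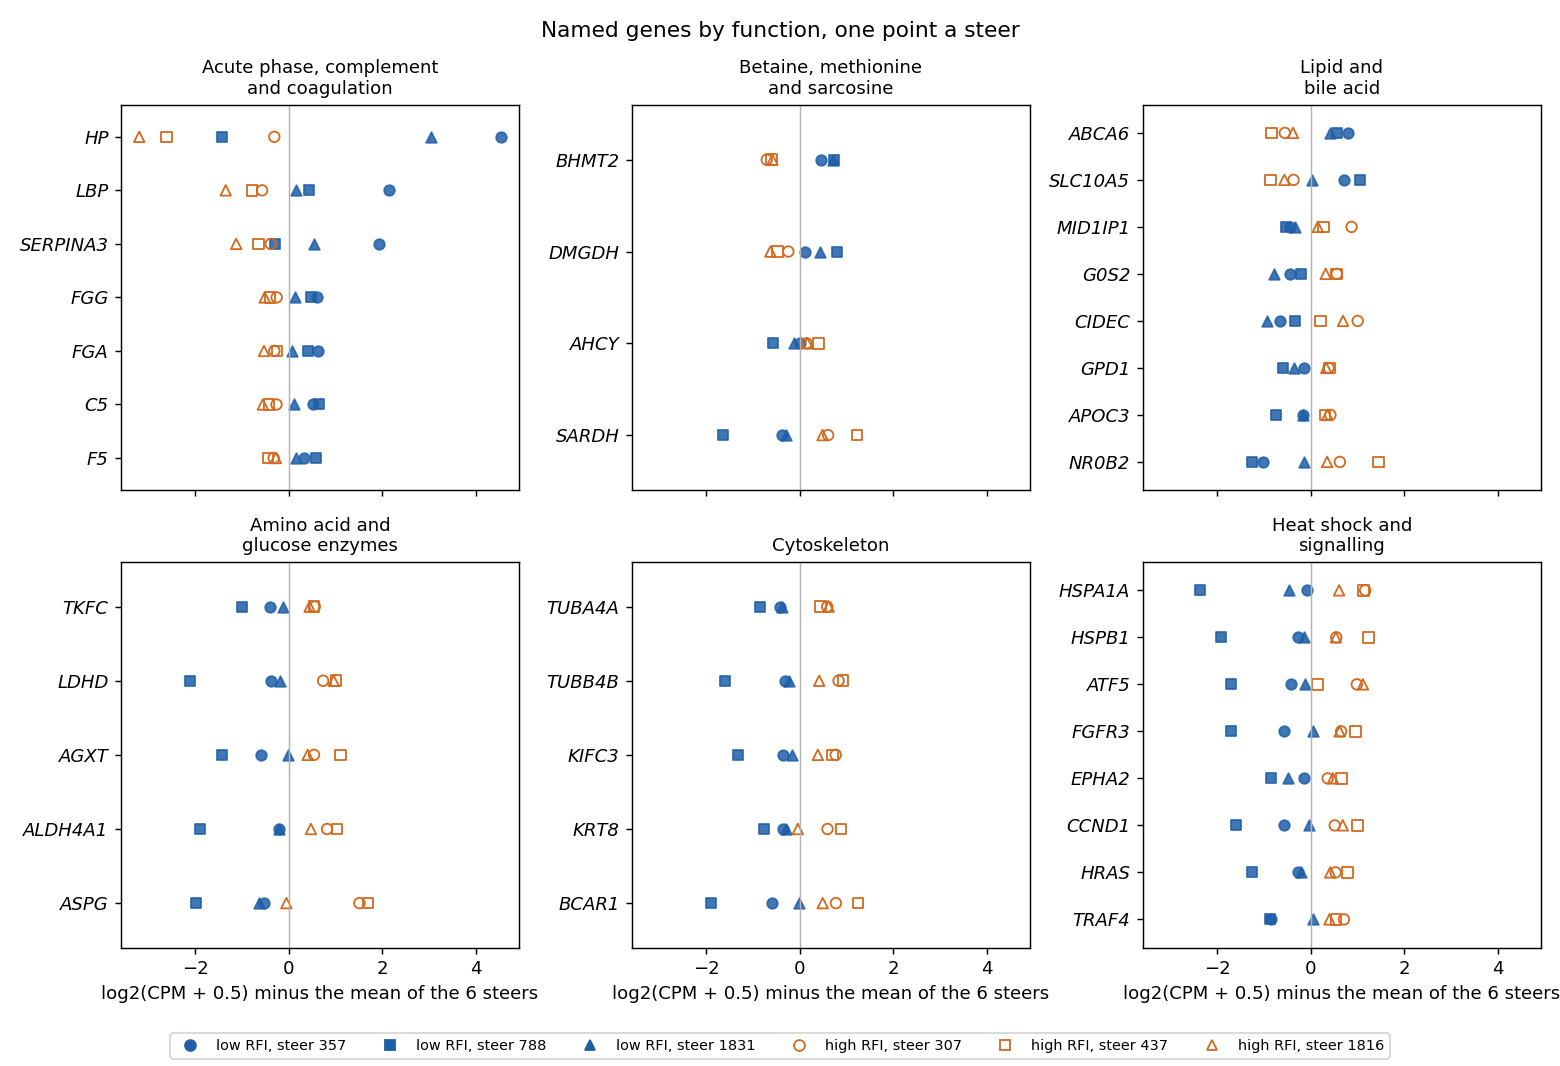
Log2(CPM + 0.5) of each steer minus the mean of the 6 steers for named genes, in 6 panels by function, with low RFI steers as filled and high RFI steers as open symbols. Low RFI steers lie to the right for the acute phase and complement genes, except steer 788 for HP and SERPINA3. They also lie to the right for BHMT2, DMGDH, ABCA6 and SLC10A5, and mostly to the left for the other genes. Steer 788 (filled square) is farthest left in the enzyme, cytoskeleton and heat shock panels.

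FGFR3, a receptor for fibroblast growth factors, was found at 17.9, 7.96 and 27.9 CPM against 42.5, 52.6 and 41.6 CPM (log2 fold change -1.35, SE 0.40). EPHA2, an ephrin receptor, was found at 16.9, 10.1 and 13.3 CPM against 24.3, 29.98 and 26.3 CPM (-1.001, SE 0.22). HRAS, a signalling GTPase, was at -1.22 (SE 0.35) and CCND1, the G1 cyclin D1, at -1.46 (SE 0.42) on the log2 scale. The stress protein genes HSPA1A and HSPB1 were found at 251, 50.7 and 190 CPM and at 113, 35.9 and 123 CPM in low RFI steers. In high RFI steers they were at 591, 577 and 402 CPM and at 199, 322 and 198 CPM. Their log2 fold changes were -1.67 (SE 0.51) and -1.40 (SE 0.44). HSPA1A has a near-identical copy, so its level is uncertain. ATF5, a stress-responsive transcription factor, was found at 71.8, 29.0 and 88.4 CPM against 191, 106 and 209 CPM (-1.42, SE 0.42).

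Genes of mitosis and DNA replication went both ways. Of 9 matched genes of 36 listed, 3 were higher (6.13% of all genes) and 3 lower (7.34%) with an unadjusted p under 0.05, all 6 from the study's list. KIF23, a motor of cytokinesis, was found at 30.04, 20.0 and 16.0 CPM against 10.3, 6.70 and 11.1 CPM (log2 fold change 1.23, SE 0.30), and SGO2, a protector of centromeric cohesion, at 30.3, 26.9 and 38.5 CPM against 16.7, 11.3 and 19.4 CPM (1.01, SE 0.24). UBE2S, a ubiquitin-conjugating enzyme of mitotic exit, had a log2 fold change of -1.22 (SE 0.35). All 3 matched clock genes, NR1D1, NFIL3 and NOCT, overlapped between the groups, as did 9403 of the 13025 genes tested.

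Some of the large fold changes rested on few reads. RTN4R, a receptor for myelin inhibitors, was found at 0.228, 0.148 and 0.0587 CPM against 1.88, 4.07 and 0.395 CPM, which is 6, 3 and 1 reads against 41, 113 and 14 reads (log2 fold change -3.74, SE 0.92). LRRC61 was found at 0.266, 0.00 and 0.352 CPM against 0.413, 4.72 and 0.592 CPM, and its log2 fold change of -3.19 (SE 1.18) became -0.75 without steers 788 and 437. On the higher side CHI3L2, a chitinase-like protein, was found at 7.42, 1.63 and 2.17 CPM against 0.917, 0.865 and 0.620 CPM (2.24, SE 0.60), with steer 357 well above the rest. An unnamed gene, ENSBTAG00000016032, was higher at 17.2, 15.2 and 21.3 CPM against 6.602, 5.15 and 5.84 CPM (1.61, SE 0.21), and it had the third smallest p of all genes.

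Some of these genes are neighbours on a chromosome. In the RefSeq order of protein-coding genes (assembly ARS-UCD2.0), 142 of the genes that the study listed for this comparison were looked up, and 5 pairs of them are next to each other, formed by 10 genes. Both members had the same direction in all 5 pairs. Of the 157 listed genes tested, however, 38 were higher and 119 lower, so listed genes often share a direction. Whether neighbours do so more than other listed genes was not tested. DMGDH and BHMT2 were both higher, IMPA1 and SLC10A5 both higher (log2 fold changes 0.73 and 1.32), and FGG and FGA both higher. ARVCF and TANGO2 were both lower (-1.51 and -1.44), as were CKB and TRMT61A (-1.48 and -2.28). The strand setting of the counting is not given in the sources used here, so reads from overlapping ends of neighbours could be counted on either gene.

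A further question is whether genes listed by the study for other comparisons also differed between RFI groups in CH on grass. Of the genes listed for CH under H1, 157 were tested here, and 33 (21.0%) had an unadjusted p under 0.05, against 13.5% of all genes tested. Without the 3 genes also listed for CH on grass it was 30 of 154 (19.5%). Of these 33, 7 were higher and 26 lower, and the median log2 fold change over the 157 was -0.15. Of the 6 steers, 3 also contributed libraries to H1, so the lists are not from separate animals throughout. GADD45G, a stress-induced growth arrest gene, was found at 4.87, 3.66 and 4.99 CPM in low RFI steers and at 5.55, 11.6 and 15.4 CPM in high RFI steers on grass (log2 fold change -1.27, SE 0.37). In CH under H1 its log2 fold change was 1.23 (SE 0.38). Steer 1816 is in both comparisons, as a low RFI steer under H1 and a high RFI steer on grass. On a scale common to all libraries its GADD45G level was 24.5 CPM under H1 and 15.1 CPM on grass. The highest level of a high RFI steer under H1 was 11.8 CPM. The part of this steer in the 2 opposite signs was not tested. Of the 25 tested genes listed for HF under H1, 2 had an unadjusted p under 0.05.

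The effect of RFI group in CH on grass was set against that in HF on grass, in 10 low and 8 high RFI steers, to ask whether breeds differed on the same diet. The edgeR test of the difference called 0 of 13406 genes (0%), with 766 genes (5.71%) at an unadjusted p under 0.05, and DESeq2 also called 0. ABCA6 had the smallest p among higher named genes, with a difference of 1.35 (SE 0.33, adjusted p = 0.588 from edgeR), from 1.18 in CH and -0.17 (SE 0.18) in HF. TNC had a log2 fold change of 2.05 in CH and -1.04 (SE 0.47) in HF, a difference of 3.09 (SE 0.90). APOC3 was at -0.70 in CH and 0.56 (SE 0.22) in HF, a difference of -1.27 (SE 0.42), and NR0B2 was at -1.84 in CH and 0.63 (SE 0.42) in HF, a difference of -2.47 (SE 0.83). None of these differences passed the adjustment. The median SD of log2 CPM within a group was 0.433 for low and 0.473 for high RFI HF steers, against 0.333 and 0.231 for CH steers.

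The comparison with CH under H1, with 9 low and 11 high RFI steers, gave many calls. The edgeR test of the difference called 1588 of 13734 genes (11.6%). For 366 of them the effect on grass lay above that under H1, and for 1222 below it. Without the library of steer 788 this count was 158, without steer 437 it was 295, without both it was 0 and with the score on the HF grass component as a covariate it was 0. With all 12 groups of the series in one fit it was also 0. SLC39A4 had a log2 fold change of -2.65 on grass and 0.24 (SE 0.28) under H1, a difference of -2.90 (SE 0.59, adjusted p = 0.017 from edgeR). ABCA6 was at 1.18 on grass and 0.16 (SE 0.12) under H1, a difference of 1.01 (SE 0.25, adjusted p = 0.0247 from edgeR). GLTPD2, a glycolipid transfer protein homologue, was at -1.54 and 0.33 (SE 0.14). BHMT2 had a difference of 1.00 (SE 0.40), which did not pass (adjusted p = 0.125 from edgeR), nor did TUBA4A with -0.74 (SE 0.43, adjusted p = 0.28 from edgeR).

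Against CH under H2, with 9 low and 8 high RFI steers, the edgeR test called 0 of 13338 genes (0%), with 453 (3.40%) at an unadjusted p under 0.05, and DESeq2 called 0. FCGR2B was at 1.01 on grass and -0.50 (SE 0.20) under H2, a difference of 1.49 (SE 0.38), and G0S2 at -0.97 and 0.67 (SE 0.31), a difference of -1.65 (SE 0.55), each with an adjusted p of 0.905 from edgeR.

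**Figure D4:**
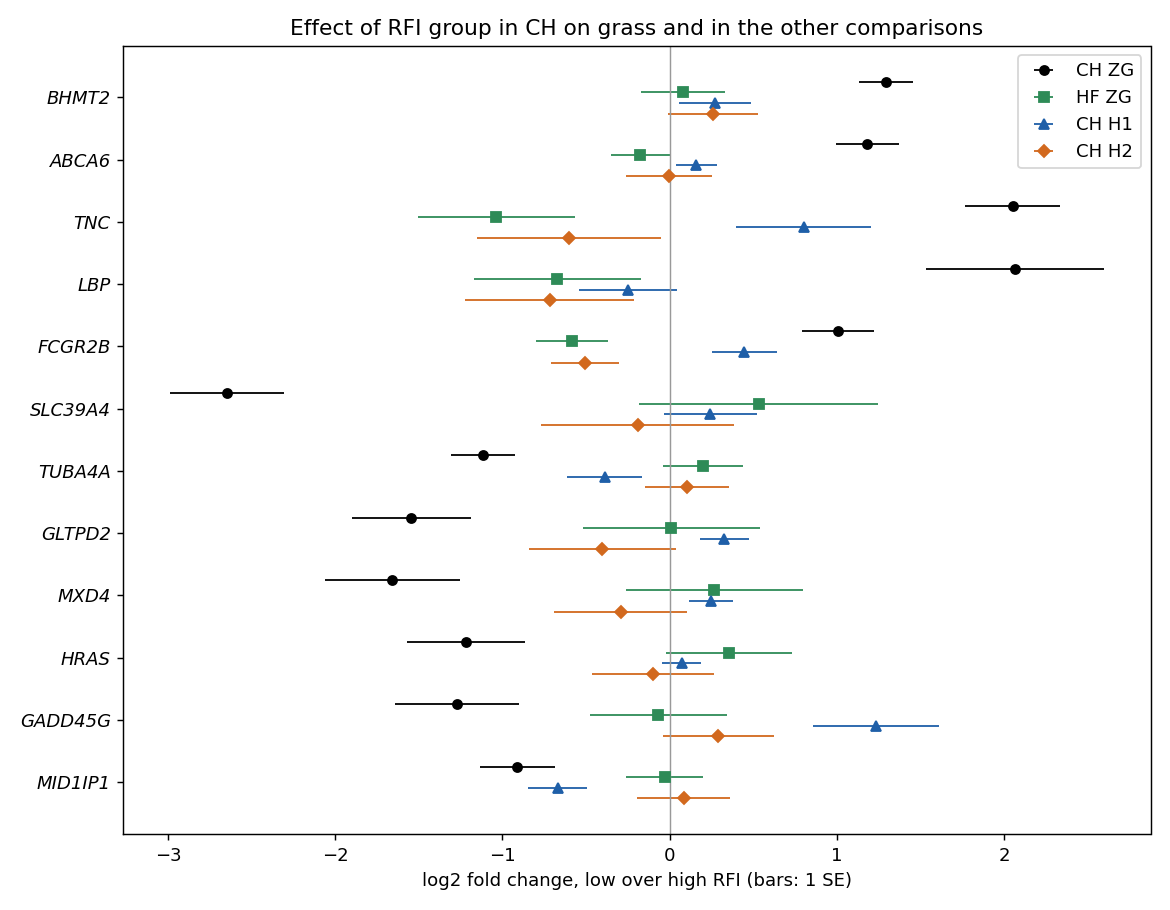
Log2 fold change of low over high RFI with bars of 1 SE for 12 named genes in CH on grass (black circles), HF on grass (green squares), CH under H1 (blue triangles) and CH under H2 (orange diamonds). BHMT2 and ABCA6 are between -0.17 and 0.27 in the other 3 comparisons, whereas MID1IP1 is on the lower side in CH under H1 as well.

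Steers 307, 1816 and 1831 had an H1 library as well as a grass library, and steer 307 also had one under H2. Steer 1831 was of low RFI in both phases, steer 307 of high RFI in H1 and on grass and of low RFI under H2, and steer 1816 changed from low RFI in H1 to high RFI on grass. ABCA6 hardly moved within a steer, with 80.6 CPM under H1, 83.6 on grass and 83.2 under H2 in steer 307, 97.4 and 94.2 CPM under H1 and on grass in steer 1816, and 164 and 165 CPM in steer 1831. Such a stable level is not particular to ABCA6. Between H1 and grass, 24.1% of all genes tested stayed within a fixed small fold limit in all 3 steers. Of the 14 higher named genes with the smallest p, ABCA6 alone did so, and 0 of the 15 lower ones. BHMT2 was found at 12.3, 16.0 and 13.7 CPM in steer 307, at 14.4 and 17.4 CPM in steer 1816 and at 38.0 and 43.2 CPM in steer 1831. For both genes the order of the 3 steers under H1 was that of grass, although steer 1816 was then in the low RFI group. For BHMT2 the highest level of any CH H1 library was that of steer 1831.

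Other genes moved within the steers. SLC39A4 was found in steer 1831 at 9.51 CPM under H1 and 1.60 CPM on grass, while it went from 6.77 to 8.21 CPM in steer 307 and from 14.2 to 10.3 CPM in steer 1816. TNC went from 46.2 to 17.7 CPM in steer 307 and from 35.0 to 55.5 CPM in steer 1831. GLTPD2 was found at 12.8 and 14.8 CPM in steer 307, at 24.6 and 10.1 CPM in steer 1816 and at 19.5 and 6.54 CPM in steer 1831. Among the 14 higher named genes with the smallest p, steer 1831 was above steers 307 and 1816 under H1 for 10. Among the 15 lower genes it was below both for 9. Over all genes the shares were 34.8% and 32.3%. The named genes were chosen by their difference on grass between these same steers, so the shares over all genes are no matched base for them. With 3 steers these counts are descriptions only.

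**Figure D5:**
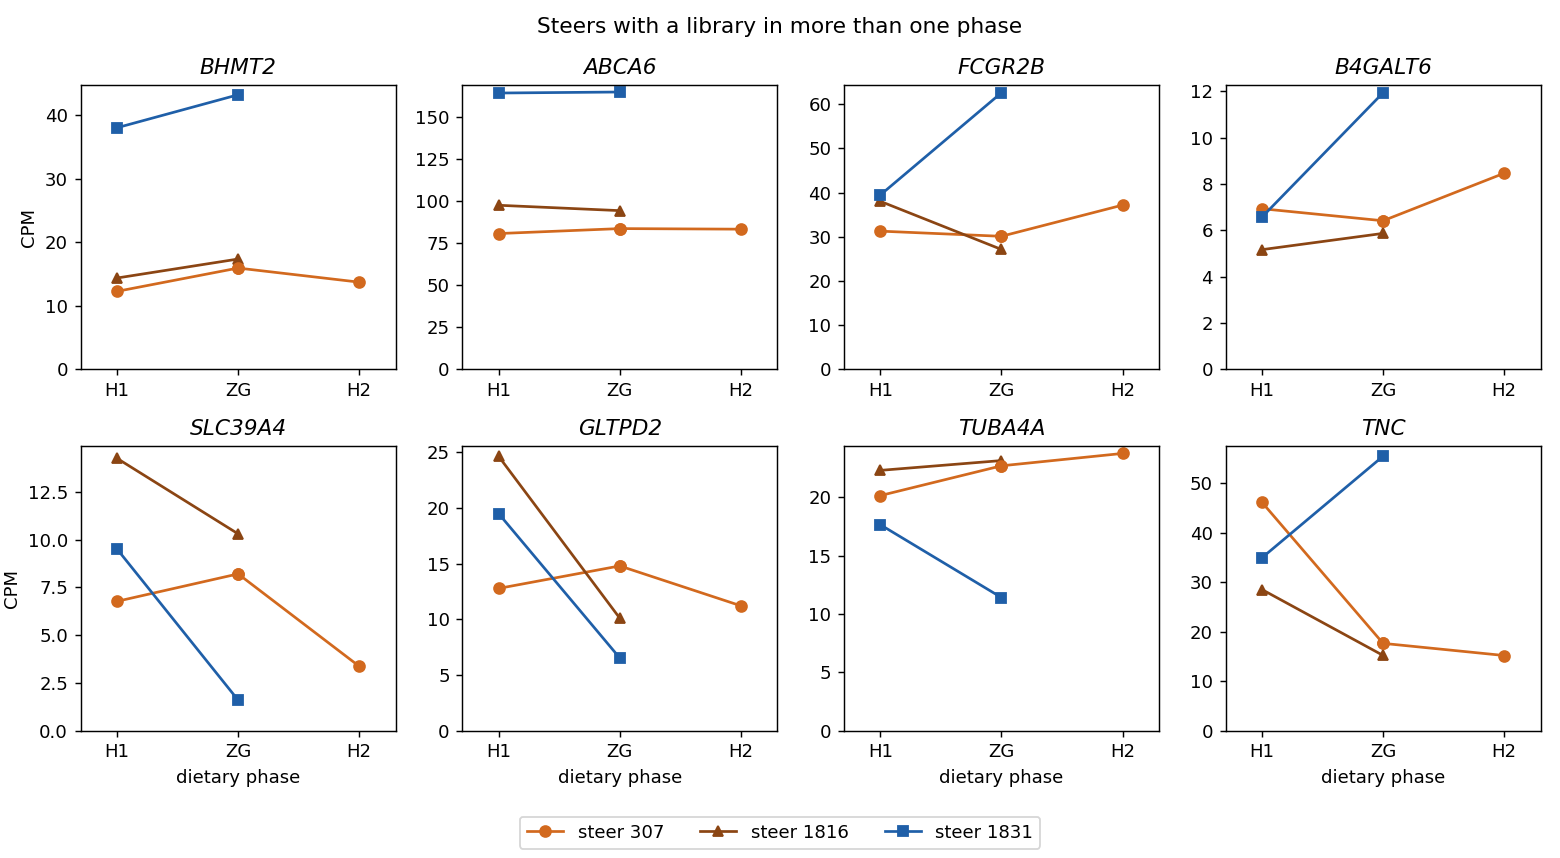
CPM of 8 named genes in the 3 steers with libraries in more than 1 phase, H1, grass (ZG) and H2 on the horizontal axis, each vertical axis starting at 0. Steer 1831 stays above the others in H1 and on grass for BHMT2 and ABCA6, while its SLC39A4, GLTPD2 and TUBA4A levels differ between the phases.

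The spread of the leading genes over other steers puts the values on grass in context. For BHMT2 the 20 CH libraries under H1 ran from 8.86 to 38.0 CPM and the 18 HF libraries on grass from 12.2 to 44.4 CPM, and on the same scale the 6 CH steers on grass lay within the HF range. For ABCA6 the CH H1 libraries ran from 79.0 to 164 CPM and the HF grass libraries from 69.7 to 188 CPM. For SLC39A4 the CH H1 libraries ran from 3.01 to 19.2 CPM, all above the 3 low RFI steers on grass, while the CH H2 libraries ran from 0.222 to 8.73 CPM and the HF grass libraries from 0.224 to 18.6 CPM.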

How the data were processed

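Liver RNA of CH and HF steers was sequenced as single-end reads by the authors, who trimmed the reads, aligned them with STAR to the genome UMD3.1 and deposited raw read counts per gene of Ensembl identifiers without normalization. The deposited counts of 24616 genes in 90 libraries were used as they are, and none was left out. Groups came from the breed, diet and RFI labels, and gene names from the 352 identifiers that the supplement of the study names. The supplement's own fold changes and p-values were not used.

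The 6 CH ZG libraries were fitted alone in edgeR 4.0.16 (R 4.3.3) with TMM normalization, filterByExpr, a robust quasi-likelihood test and p-values adjusted by Benjamini-Hochberg over all genes tested, and an adjusted p under 0.1 was called. A difference between RFI effects was the interaction in one edgeR fit of both comparisons. Alternatives were DESeq2 1.42.0, limma-voom (limma 3.58.1), other scalings, filters and each steer left out. The likelihood ratio test, the component score as covariate and the fits without steers 788 and 437 together, or without either in DESeq2, were added after seeing the data. The principal component of the 6 libraries used log2 CPM with a pseudocount of 0.5. The HF component used edgeR's log2 CPM with a different prior count, normalized over all libraries of the series. The fits were tested on simulated counts, with 100 genes changed by 1 and 100 by 2 on the log2 scale. For CH ZG, edgeR recovered 15% and 88% of them, with 23 false calls. DESeq2 recovered 38% and 91%, with 58 false calls. The edgeR fits of the differences recovered 10% to 43% and 67% to 75%, with 5 to 10 false calls. Counts were drawn for each gene independently, so a gradient shared across genes, as between steers 437 and 788, was not simulated. The counts of false calls do not cover such a gradient. Named genes were the 15 higher and 15 lower with the smallest p, those the paper names for CH ZG, up to 4 per gene list, the 5 largest changes each way without overlap, and the 5 each way with the smallest p per difference. Results of 3 genes that this rule names are not reported here. The genes, lists and comparisons were chosen with earlier results of these data known.

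The 6 libraries are from separate animals. Steers 307, 1816 and 1831 pair CH ZG with H1 through the steer number in the labels, and the pairing entered limma-voom as a block.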

Additional observations from a re-analysis of the deposited data

Results flagged for a closer look

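The effect of RFI group differed between CH on grass and CH under H1 by the edgeR test of the difference for 1588 genes. Among genes with a name, those with the smallest p on the lower side included ZXDC (-1.60), CST6 (-4.13), MXD4 (-1.92), NKD2 (-2.98) and RAB20 (-2.23), and on the higher side MID1 (0.94), SCML1 (1.60), ABCA6 (1.01) and RND3 (1.06), all as differences in log2 fold change. CST6, a cystatin, rests on 3, 0 and 1 reads in low RFI steers and 14, 24 and 14 reads in high RFI steers on grass. MXD4, a partner of the MYC network, was found at 3.69, 1.83 and 5.40 CPM in low RFI and at 12.1, 14.3 and 7.98 CPM in high RFI steers. RND3 and MID1 had opposite signs in the 2 phases, with log2 fold changes of 0.58 and 0.60 on grass against -0.49 and -0.36 under H1. The count of 1588 became 158 without steer 788 and 0 without steers 788 and 437. All 9 named genes kept their direction without steer 788, without steer 437, without both, with the score on the HF grass component and with all 12 groups in one fit. Their edgeR adjusted p ran from 0.0138 to 0.0267 with all steers, from 0.059 to 0.133 without steer 788 and from 0.0546 to 0.133 without steer 437, with 6 of 9 called in each of the latter. It ran from 0.159 to 0.442 without both, from 0.445 to 0.952 with the score and from 0.178 to 0.485 with all 12 groups, with 0 called. With the score the difference became -1.68 for NKD2 and -1.34 for RAB20.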

How the results depend on the processing

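The count of 0 genes called for CH on grass was the same with DESeq2 size factors, upper quartile factors, no filter, at least 10 reads in every library, an adjusted p under 0.05, the 24 grass libraries in one fit, all 12 groups, no robust estimation and the component score. It was 158 with DESeq2, 9 with limma-voom, 67 with the likelihood ratio test and 1 without steers 788 and 437, and with 1 steer left out it was 0 to 1 in edgeR and 15 to 324 in DESeq2. The cause was not tested. Without steer 437, 766 genes had an unadjusted p under 0.05, and 425 with the score.

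The difference from HF on grass was 0 in all alternatives run. The count for the difference from H1 was 2077 with DESeq2 and 1503 with at least 10 reads, but 158 to 3117 with 1 steer left out, 0 with all 12 groups, with the score and without steers 788 and 437, 886 with limma-voom without the steer block and 852 with the steer as a replicate block (correlation 0.314). The difference from H2 was 2 with all 12 groups and 0 otherwise. A steer block was not possible for H2, where 1 steer is shared, or for HF.

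Of 111 named genes, these changed sign in log2 fold change. With the component score LRRC61 was 1.01, IRS2 0.43, IL1A -0.50, PKHD1 -0.025 and NFIL3 0.24. Without both steers IRS2 was 0.025, GSTA4 -0.050 and PKHD1 -0.053. With limma-voom GSTA4 was -0.028, FBP2 0.023, NR1D1 0.16 and NFIL3 0.11. With 1 steer left out in edgeR, NOCT ran from -1.37 to 0.013, NFKBIA from -0.61 to 0.082, PKHD1 from -0.083 to 0.39, FBP2 from -1.08 to 2.28, NR1D1 from -0.62 to 0.31 and NFIL3 from -0.30 to 0.34. Steer 437 decided the sign of NOCT, NFKBIA (0.065 without it in DESeq2) and PKHD1 (-0.025 in edgeR and -0.041 in DESeq2 without it), and PKHD1 was also below 0 without steer 357. Without steer 1816 the sign changed for FBP2 and NR1D1. NFIL3 was above 0 without steer 307 and without steer 788 (0.099 in edgeR, 0.081 in DESeq2), and IL1A was -0.00233 in DESeq2 without steer 788. The sign held for the other named genes under every alternative that gave a value. GC and length offsets were not run, as no gene had such values here.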

Other observations

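MIF, a cytokine that acts on macrophages, was found at 6.31, 0.890 and 4.69 CPM in low RFI steers and at 15.3, 21.9 and 11.1 CPM in high RFI steers (log2 fold change -2.01, SE 0.60). HDAC5, a histone deacetylase, was found at 21.9, 11.3 and 26.3 CPM against 44.5, 43.7 and 38.9 CPM (-1.10, SE 0.29). RPL13, a protein of the large ribosomal subunit, was found at 90.5, 46.5 and 87.5 CPM against 144, 136 and 145 CPM (-0.92, SE 0.26), whereas RPL19 was at 272, 250 and 272 CPM against 293, 298 and 284 CPM (-0.14, SE 0.15). Steer 788 was the lowest of the 6 for each of these 4 genes. Ribosomal protein genes have processed copies in the genome, so their levels are uncertain.

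POLR3A, the largest subunit of RNA polymerase III, was among the higher genes, at 48.7, 46.7 and 48.1 CPM in low RFI steers and at 14.1, 21.0 and 31.0 CPM in high RFI steers (log2 fold change 1.11, SE 0.27), with the low RFI steers much closer to each other than the high RFI steers.

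The unnamed gene ENSBTAG00000039555, picked after its values were seen, was found at 0.418 CPM in low RFI steer 357 and 0.411 CPM in low RFI steer 1831, but at 17.4 CPM in low RFI steer 788 and at 17.9, 16.2 and 15.7 CPM in the high RFI steers. Its log2 fold change was -1.45 (SE 1.29) with all 6 steers and -5.30 (SE 0.21) without steer 788. Over the 90 libraries it was at or below 1.24 CPM in 25 and between 7.22 and 67.9 CPM in the other 65, with no library between. The low class held 7 of 20 CH libraries under H1, 8 of 17 under H2 and 4 of 18 HF libraries on grass. Steer 1831 was at 0.547 CPM under H1 and 0.401 CPM on grass. Of the 15 steer numbers with more than 1 library, all 15 had their libraries on the same side of 5 CPM. This limit was set after the values were seen, and 3 of the 15 were on the low side. The 15 include a number labelled CH under H1 and HF under H2, whose libraries may not be from 1 animal. The edgeR adjusted p without steer 788 was 0.00164.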
